A study of Homo sapiens with 8 samples.

Results

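The genes described here make up the response to the transcription factor ATF4, the effector of the integrated stress response: the kinases and mitochondrial relay that switch it on, ATF4 with its partner factors, and the target genes that supply amino acids, feed back on the response or leave the cell as signals. They were chosen by symbol from a list of 42 genes, of which 41 were among the 15852 genes of the count table and 39 of these had enough counts to be tested, beside 11841 tested genes in all. Expression of CBS was not analysed here, and FGF21 and ALDH1L2, with 0 to 3 and 2 to 5 counts per library, were too low to test. The cells were KYSE150, a long-established line derived from a squamous carcinoma of the esophagus, with 4 libraries of genotype Control and 4 of genotype ShBOLA3-L, in which the BOLA3-L isoform was knocked down. Neither group received a treatment, per the labels. The labels do not name the control construct, whether the cells were a pool or a clone, or whether replicates were grown apart. The p-values therefore measure the spread between these libraries, which may be technical.

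In the integrated stress response, kinases that sense amino acid shortage, heme shortage, unfolded protein or viral RNA phosphorylate the translation factor eIF2. General protein synthesis then slows while translation of the ATF4 message is favoured, and ATF4 turns on genes for amino acid uptake, for synthesis of serine, glycine, asparagine and proline, and for feedback on the response itself. Mitochondrial stress can reach this pathway through the protease OMA1, which cleaves DELE1, and through the kinase HRI, the product of EIF2AK1. Much of ATF4 control is translational, so the level of the ATF4 message is not a measure of the level of ATF4 protein.

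ATF4 binds DNA with C/EBP proteins at composite elements whose core reads TGATGNAA, and promoter stretches that hold this core are shown as examples of the element in members' own sequence. RefSeq promoter windows on GRCh38.p14, from 250 bases before to 50 after a start site, were matched for 34 of the 42 listed members, and the first window the table lists for a gene was searched. A gene can have several start sites, so a window can lie inside the gene's full span, as it does for ASNS and MTHFD1L. The core occurred on either strand in 5 of the 34 windows (14.7%), in 3.67% of the first windows of all 27305 genes in the table and in 1.67% of those of 9762 tested genes, and SLC7A1 held it only after the start. With every listed window searched, a setting chosen after seeing the data, 9 of the 34 members (26.5%), 4.46% of all genes and 2.79% of tested genes held the core. The other 4 are printed 5′ to 3′ on the coding strand with the 8 bases of the core, or of its reverse complement, in capitals.
CHAC1 (chr15:40953246-40953285, plus strand, core 209 bases before the start): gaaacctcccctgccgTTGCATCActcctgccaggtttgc
FGF21 (chr19:48755454-48755493, plus strand, core 54 bases before the start): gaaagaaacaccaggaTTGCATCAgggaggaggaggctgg
MTHFD1L (chr6:150866341-150866380, plus strand, core 129 bases before the start): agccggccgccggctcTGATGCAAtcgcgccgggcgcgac
ASNS (chr7:97872453-97872492, minus strand, core 68 bases before the start): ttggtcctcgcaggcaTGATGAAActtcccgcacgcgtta
These 4 genes went different ways: after knockdown CHAC1 fell (log2 change -0.78), ASNS rose (0.15), MTHFD1L gave 0.0098 and did not pass the test, and FGF21 was too low to test. A match of letters is a description of the window and does not show binding.

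Depth ran from 31178036 to 35147860 counts per library, and levels below are in CPM, counts scaled to a common library size with TMM factors. BOLA3, counted over all its isoforms, stood at 31.7% of control (log2 change -1.66, SE 0.0821, edgeR adjusted p 6.9e-11), and the long isoform alone was not measured. All 8 genes listed for squamous epithelium were present, among them EPCAM and CDH1, which are not particular to squamous cells. They summed to 4920 to 4949 CPM in controls and 3227 to 3593 CPM after knockdown. KRT5 made up most of these sums, at 3116 to 3140 CPM in controls and 1752 to 2023 CPM after knockdown. Of these 8 genes EPCAM alone was higher after knockdown, at 146 to 157 CPM against 131 to 133 CPM in controls. Fibroblast markers summed to 9.94 to 14.8 CPM in controls and 4.53 to 7.26 CPM after knockdown, with 6 of 7 below 1 CPM in every library and COL1A1 the exception. Endothelial markers summed to 1.001 to 1.91 CPM in controls and 1.96 to 2.56 CPM after knockdown, with 4 of 5 below 1 CPM and CDH5 the exception. Leukocyte markers summed to 77.6 to 84.5 CPM in controls and 73.9 to 79.5 CPM after knockdown, with 6 of 7 below 1 CPM and CD68, a lysosomal gene, the exception. Their part in the results was not tested. BOLA3-L knockdown replicate 1 stood apart from the other knockdown libraries: it was the highest or lowest of the 4 in 32 of 39 members (82.1%) and in 75.6% of all tested genes.

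The module did not move one way. Of the 39 tested members 10 rose (background 15.0% of all tested genes), 9 fell (background 15.6%) and 20 did not pass the test, and the median log2 change was -0.00067 beside 0.0014 over all tested genes. In all, 19 members (48.7%) were called where 30.7% of all tested genes were, and the members stood at a higher level, with a median control mean of 69.4 CPM against 38.1 CPM for all tested genes. A call here means an adjusted p under 0.05 in edgeR's quasi-likelihood test, with Benjamini-Hochberg adjustment over all tested genes. The amino acid transporter SLC7A5 and the enzymes PSAT1 and ASNS were among the rises. ATF4 itself, DDIT4, TRIB3, CHAC1, the folate enzyme MTHFD2 and the cysteine enzyme CTH were among the falls. Sizes were small: 18 of the 19 called members changed by less than 0.5 on the log2 scale, and the median absolute change of the 19 was 0.21 beside 0.24 for all called genes. The groups did not overlap in 17 members (43.6%), 8 higher and 9 lower after knockdown, where 30.2% of all tested genes showed no overlap. Without knockdown replicate 1, 16 members rose (background 21.2%) and 10 fell (background 21.5%) where 42.7% of all tested genes were called, and all 19 members called with every library kept their call and direction. Without control replicate 2, 6 members rose (background 11.9%) and 6 fell (background 11.9%), and without control replicate 3, 6 rose (background 11.8%) and 7 fell (background 12.4%). In bulk RNA, fewer cells with a transcript and less of it per cell cannot be told apart.

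**Figure D1:**
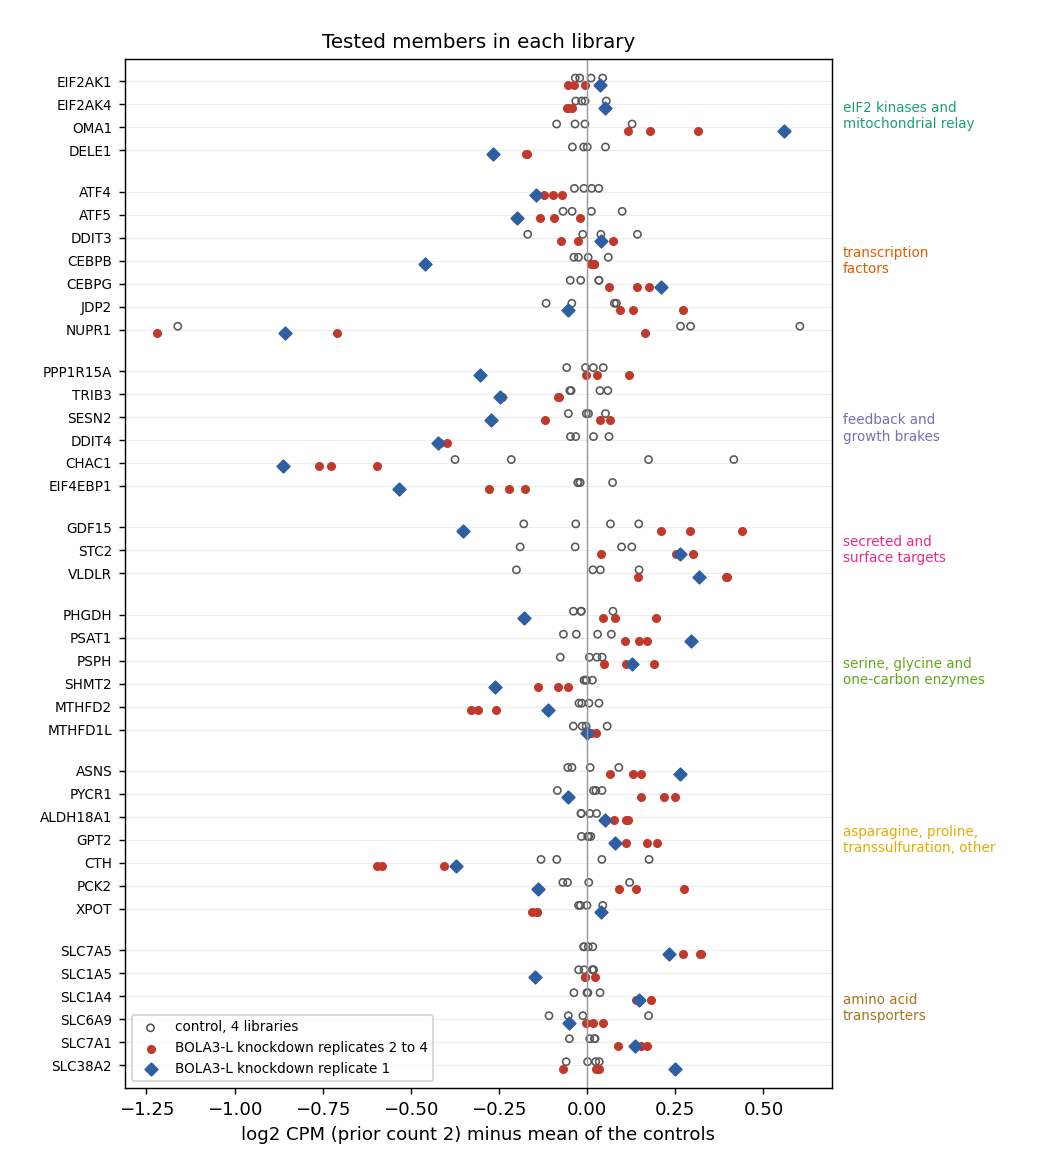
Each of the 39 tested members by row, in groups by role, with its log2 CPM (prior count 2) in each library on the x axis relative to the mean of the 4 controls. Open circles are controls, red circles are knockdown replicates 2 to 4 and blue diamonds are knockdown replicate 1, which is the highest or lowest knockdown library in 32 of the 39 rows.

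Neither of the 2 kinases passed the test, while the members of the mitochondrial relay moved in opposite directions. EIF2AK1, the heme-regulated kinase HRI, stood at 404, 395, 383 and 386 CPM in the controls, listed here and below from replicate 1 to replicate 4, and 402, 378, 382 and 391 CPM after knockdown. The groups overlapped and the log2 change was -0.015 (95% interval -0.086 to 0.055). EIF2AK4, the amino acid sensor GCN2, was counted at 159, 159.7, 157 and 166 CPM in controls and 166, 156, 155 and 154 CPM after knockdown, with a log2 change of -0.026 (95% interval -0.11 to 0.055). DELE1 (identifier 9812, chromosome 5, 141923871 to 141942047 on GRCh38.p14, as for the positions below), the protein that carries the stress signal out of mitochondria, stood at 76.2, 79.02, 75.7 and 74.04 CPM in controls and 63.4, 63.4, 67.7 and 67.6 CPM after knockdown. All 4 knockdown libraries lay below all 4 controls, and DELE1 fell by 0.22 on the log2 scale (SE 0.0443, edgeR adjusted p 0.00102). OMA1, the inner membrane protease that cleaves DELE1, stood at 11.9, 10.9, 10.6 and 10.3 CPM in controls and 16.1, 13.6, 12.3 and 11.8 CPM after knockdown. It rose by a log2 change of 0.30 (SE 0.0956, edgeR adjusted p 0.0229), with knockdown replicate 1 highest and knockdown replicate 4 within the control range. Without that first replicate the log2 change of OMA1 was 0.21 (adjusted p 0.0436), and its call was lost without control replicate 2, 3 or 4 or knockdown replicate 2 (adjusted p 0.0556 to 0.0737) and with limma on unfiltered FPKM.

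Among the transcription factors ATF4 fell slightly, CEBPG rose and the others did not pass the test. ATF4 (identifier 468, chromosome 22, 39520559 to 39522686) was counted at 354, 359, 349 and 342 CPM in controls and 317, 328, 323 and 334 CPM after knockdown. Every knockdown library was below every control, at 92.7% of control in the fit (log2 change -0.11, SE 0.0330, edgeR adjusted p 0.0174). That call was lost without control replicate 2 (adjusted p 0.0731) and when limma was run on FPKM filtered at 0.5. Processed copies ATF4P3 and ATF4P4 share 10.3% of its 75-base sequence windows. CEBPG, a C/EBP factor that pairs with ATF4, stood at 61.4, 60.2, 63.7 and 63.7 CPM in controls and 71.9, 68.6, 64.9 and 70.2 CPM after knockdown. It rose by 0.15 on the log2 scale (SE 0.0460, edgeR adjusted p 0.0208) without overlap, a call lost without control replicate 1 or 2 or knockdown replicate 4 (adjusted p 0.0528 to 0.0681).

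DDIT3 encodes CHOP, the factor linked to death under prolonged stress, and it stood at 7.24, 8.37, 8.07 and 8.99 CPM in controls and 8.37, 7.995, 8.57 and 7.73 CPM after knockdown. The groups overlapped throughout, and the log2 change of -0.0012 had a 95% interval of -0.20 to 0.20. A change within that interval is not excluded by these libraries. Exons of MBD6, at 57.6 to 69.8 CPM, and of MARS, whose level was not checked, cover 31.6% of the DDIT3 exon bases on the opposite strand. On the same strand AC022506.1 covers 8.03%. Whether counting used strand is not given in the sources used here. ATF5, an ATF4 relative tied to the mitochondrial unfolded protein response, had a log2 change of -0.11 (95% interval -0.31 to 0.091), with NUP62 at 97.8 to 110.0 CPM on the opposite strand of part of its exons. JDP2, a repressor that binds the same family of sites, gave 0.11 (-0.060 to 0.29). CEBPB gave -0.088 (-0.26 to 0.087), with 32.9, 34.9, 33.5 and 32.6 CPM in controls and 24.3, 33.9, 33.7 and 33.9 CPM after knockdown. In that gene knockdown replicate 1 alone stood low, and without it the log2 change was 0.017. NUPR1, a small stress-induced chromatin protein, rested on 3 to 15 counts per library and gave -0.86 (-1.94 to 0.22).

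Of the 6 genes grouped as feedback and growth brakes, 4 fell (background 15.6%) and the remaining 2 did not pass the test. The group includes CHAC1, which degrades glutathione. Roles and lists were chosen with earlier results of these data known, so counts by role or list, here and below, are descriptions. DDIT4 (identifier 54541, chromosome 10, 72273924 to 72276036), which encodes the mTORC1 inhibitor REDD1, was counted at 235, 232, 243 and 250.4 CPM in controls and 179, 182, 179.7 and 179 CPM after knockdown. The 4 knockdown values lay close together and far under the controls, and DDIT4 fell by 0.42 on the log2 scale (SE 0.0358, edgeR adjusted p 9.1e-08), the smallest p of any member. The antisense gene DDIT4-AS1 overlaps 41.2% of its exon bases, so part of these reads could come from either strand. EIF4EBP1, the translation repressor 4E-BP1, stood at 113, 106, 106 and 106 CPM in controls and 74.2, 92.1, 88.6 and 95.1 CPM after knockdown. It fell by 0.30 (SE 0.0597, edgeR adjusted p 1.0e-03), with knockdown replicate 1 lowest, and by 0.22 without that library.

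CHAC1 and TRIB3, targets of ATF4, also fell, while the targets ASNS, PSAT1 and SLC7A5 rose and DDIT3 did not pass the test. CHAC1 (identifier 79094, chromosome 15, 40953471 to 40956512) degrades glutathione and stood at 4.56, 5.40, 3.09 and 3.46 CPM in controls and 2.19, 2.41, 2.35 and 2.65 CPM after knockdown. Its controls were widely spread, yet the highest knockdown library was below the lowest control, and its log2 change of -0.78 (SE 0.175, edgeR adjusted p 0.00230) was the largest called among the members. CHAC1 rests on 69 to 171 counts per library, and on log2(FPKM + 1), which shrinks low genes, the change was -0.34. TRIB3, a pseudokinase that damps ATF4 and AKT signalling, stood at 68.3, 73.6, 72.4 and 68.4 CPM in controls and 59.5, 66.7, 59.7 and 66.8 CPM after knockdown. It fell by 0.16 without overlap (SE 0.0512, edgeR adjusted p 0.0217), a call lost without control replicate 2 or 3 or knockdown replicate 3 (adjusted p 0.0712 to 0.0919) and with limma on unfiltered FPKM. PPP1R15A, which encodes the eIF2 phosphatase subunit GADD34, gave -0.032 (95% interval -0.17 to 0.11) and the leucine sensor SESN2 gave -0.065 (-0.22 to 0.093). Neither passed the test, and both were lowest in knockdown replicate 1, without which they gave 0.049 and -0.0024.

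Among targets at the cell surface or outside the cell, VLDLR and STC2 rose. VLDLR, a lipoprotein receptor, stood at 14.2, 13.01, 13.2 and 11.2 CPM in controls and 16.04, 16.9, 16.96 and 14.2 CPM after knockdown. It rose by 0.31 on the log2 scale (SE 0.0848, edgeR adjusted p 0.00876), although knockdown replicate 4 was no higher than control replicate 1, and the change on log2(FPKM + 1) was 0.20. STC2, the secreted glycoprotein stanniocalcin-2, stood at 21.7, 21.3, 17.4 and 19.4 CPM in controls and 23.9, 20.5, 23.7 and 24.5 CPM after knockdown. Its groups overlapped, and the rise of 0.21 (SE 0.0770, edgeR adjusted p 0.0429) was lost without control replicate 3 or 4 or knockdown replicate 3 or 4 (adjusted p 0.0980 to 0.168). It was also lost with the replicate number as a block (adjusted p 0.0533) and with limma on unfiltered FPKM. GDF15, a circulating stress cytokine, was counted at 4.68, 5.02, 5.31 and 4.22 CPM in controls and 3.74, 6.52, 5.55 and 5.88 CPM after knockdown, and its log2 change of 0.18 (95% interval -0.14 to 0.49) missed the threshold. Without knockdown replicate 1, the lowest of all 8 libraries, its log2 change was 0.32 (adjusted p 0.0422).

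In serine, glycine and one-carbon metabolism 1 of 6 enzymes rose (background 15.0%) and 2 fell (background 15.6%). PHGDH, PSAT1 and PSPH make serine from a glycolytic intermediate, and PSAT1 (identifier 29968, chromosome 9, 78297125 to 78330093) stood at 187, 182, 195 and 200.3 CPM in controls and 234, 215, 211 and 206 CPM after knockdown. Every knockdown library of PSAT1 was above every control, a rise of 0.18 on the log2 scale (SE 0.0436, edgeR adjusted p 0.00417). PSPH gave 0.12 (95% interval 0.015 to 0.22) and PHGDH 0.041 (-0.089 to 0.17), and neither passed the test with all libraries. Without knockdown replicate 1 both rose, PSPH by 0.12 (adjusted p 0.0315) and PHGDH by 0.11 (adjusted p 0.0311).

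MTHFD2 (identifier 10797, chromosome 2, 74198615 to 74217565), the mitochondrial methylenetetrahydrofolate dehydrogenase, was counted at 206, 207, 210.2 and 214 CPM in controls and 194, 175, 169 and 167 CPM after knockdown. It fell by 0.25 (SE 0.0441, edgeR adjusted p 3.0e-04) with no overlap, and knockdown replicate 1 was the nearest to the controls. Opposite-strand exons, among them those of SLC4A5, which stayed below 1 CPM, cover 33.2% of the MTHFD2 exon bases. SHMT2, which splits serine into glycine and a folate-bound carbon inside mitochondria, stood at 181, 180.4, 183 and 179.8 CPM in controls and 151, 174, 164 and 171 CPM after knockdown. It fell by 0.13 without overlap (SE 0.0425, edgeR adjusted p 0.0241), but the call was lost without any single control library or knockdown replicate 3 (adjusted p 0.0515 to 0.0704) and with limma on log2 FPKM. MTHFD1L, the mitochondrial formate-releasing step whose promoter stretch is printed above, had groups that overlapped and a log2 change of 0.0098 (95% interval -0.066 to 0.086).

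Among the other supply enzymes ASNS and GPT2 rose and CTH fell. ASNS (identifier 440, chromosome 7, 97851677 to 97928441), asparagine synthetase, was counted at 176, 160.2, 159 and 166 CPM in controls and 198, 181, 173 and 183 CPM after knockdown. It rose by 0.15 on the log2 scale (SE 0.0452, edgeR adjusted p 0.0147), with 3 of 4 knockdown libraries above all controls, and lost its call without control replicate 2 or 3 (adjusted p 0.0539 to 0.0648). In GENCODE v29, 80.4% of its sequence windows also occur in transcripts of AC079781.5 or CR392039.5, so its counts are uncertain where counting could split them. GPT2, the mitochondrial alanine transaminase, stood at 88.6, 88.7, 89.1 and 87.5 CPM in controls and 93.4, 99.4, 102 and 95.4 CPM after knockdown. The groups did not overlap and GPT2 rose by 0.14 (SE 0.0409, edgeR adjusted p 0.0145), a call lost without knockdown replicate 3 (adjusted p 0.0572).

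CTH (identifier 1491, chromosome 1, 70411268 to 70439851), the last enzyme of cysteine synthesis from methionine, stood at 21.8, 18.2, 17.6 and 19.8 CPM in controls and 14.9, 12.8, 12.7 and 14.5 CPM after knockdown. It fell by 0.49 on the log2 scale (SE 0.0815, edgeR adjusted p 1.6e-04), and no knockdown library reached the lowest control. For the proline enzymes, ALDH18A1 gave 0.088 (adjusted p 0.0628) with all knockdown libraries above all controls and PYCR1 gave 0.15 (adjusted p 0.0653). PCK2, the mitochondrial phosphoenolpyruvate carboxykinase, gave 0.10 (adjusted p 0.343), and XPOT, the exporter of tRNA from the nucleus, gave -0.10 (adjusted p 0.0787). None of these 4 passed the test with all libraries. Without knockdown replicate 1 they did: ALDH18A1 rose by 0.10, PYCR1 by 0.21 and PCK2 by 0.17, and XPOT had a log2 change of -0.14 (adjusted p 0.00274, 3.3e-05, 0.0103 and 6.8e-06).

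**Figure D2:**
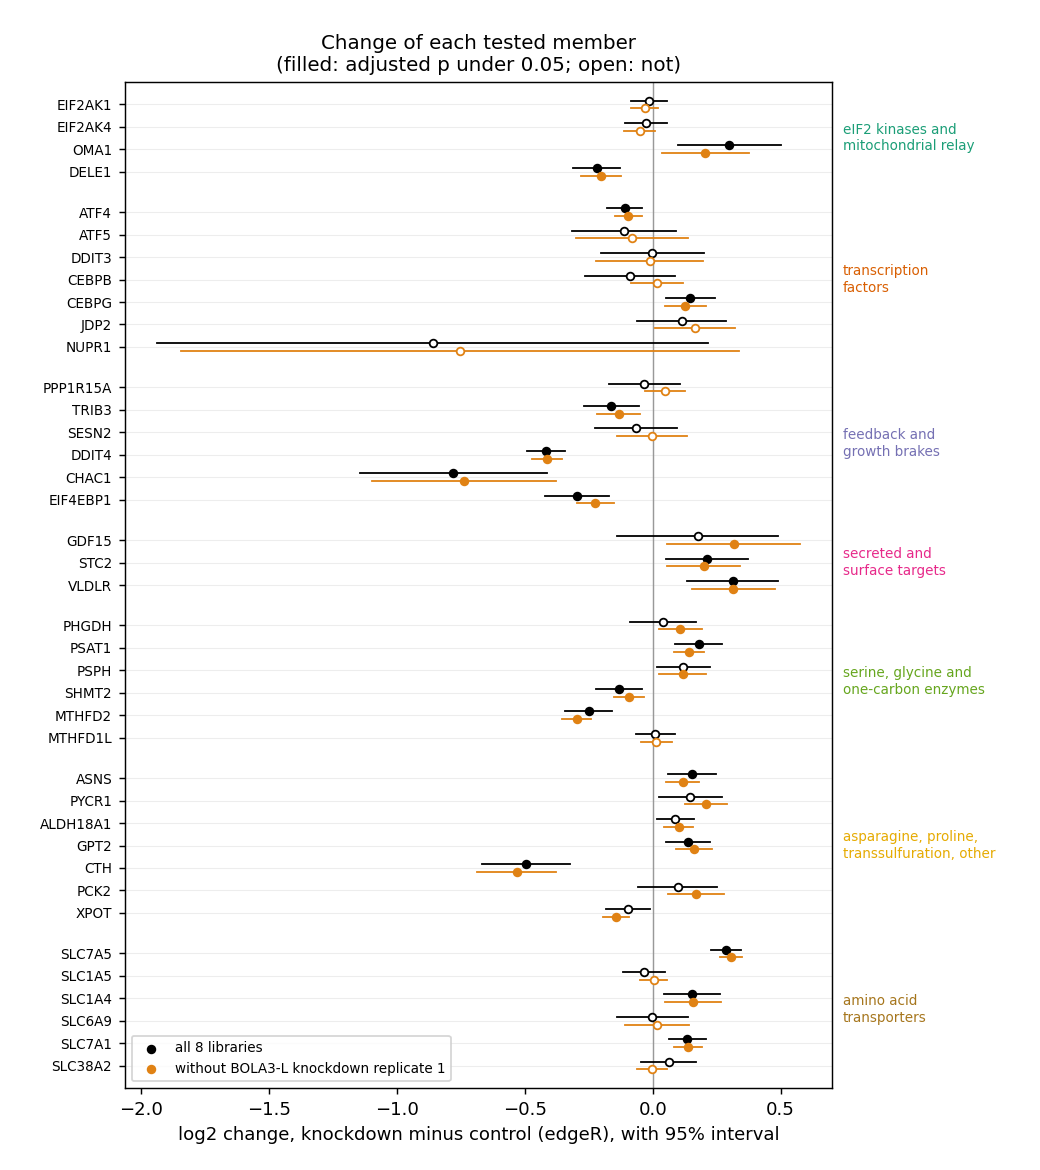
The log2 change (knockdown minus control, x axis) of each tested member with its 95% interval, from all 8 libraries in black and without BOLA3-L knockdown replicate 1 in orange. Filled points passed an adjusted p of 0.05: 10 members rose and 9 fell with all libraries, and 16 rose and 10 fell without that library.

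Of the 6 amino acid transporters 3 rose (background 15.0%) and the other 3 did not pass the test. SLC7A5 (identifier 8140, chromosome 16, 87830023 to 87869507), the LAT1 carrier of leucine and other large neutral amino acids, was counted at 4437, 4477, 4516 and 4439 CPM in controls and 5246, 5392, 5587 and 5572 CPM after knockdown. Controls differed little among themselves, all 4 knockdown libraries were above them, and SLC7A5 rose by 0.29 on the log2 scale (SE 0.0287, edgeR adjusted p 5.6e-07). SLC7A1, the CAT1 carrier of arginine and lysine, stood at 299, 302, 302 and 287 CPM in controls and 327, 316, 330.4 and 335 CPM after knockdown. It too rose without overlap, by 0.14 (SE 0.0339, edgeR adjusted p 0.00501).

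SLC1A4, the ASCT1 carrier of alanine, serine and cysteine, stood at 26.6, 25.9, 26.6 and 27.3 CPM in controls and 29.5, 29.3, 29.5 and 30.2 CPM after knockdown. The groups did not overlap, and the rise was 0.15 (SE 0.0526, edgeR adjusted p 0.0327). Its call was lost without control replicate 1, 2 or 3 or knockdown replicate 2, 3 or 4 (adjusted p 0.0586 to 0.0826), with no filter on low counts and with the replicate number as a block (adjusted p 0.0551). The glutamine carriers did not pass the test: SLC1A5 (ASCT2) gave -0.033 (95% interval -0.11 to 0.048) and SLC38A2 (SNAT2) gave 0.063 (-0.046 to 0.17). SLC38A2 was highest in knockdown replicate 1, at 301 CPM against 242 to 259 CPM in the other knockdown libraries. The glycine carrier SLC6A9 gave -0.00067 (-0.14 to 0.14).

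On the deposited FPKM scale, which divides by gene length and allows levels of different genes to be compared, SLC7A5 led the members by a wide margin, at 828 ± 7.43 FPKM in controls and 1024 ± 28.8 FPKM after knockdown (SD, n = 4 each). DDIT4 came next at 137 ± 4.71 FPKM in controls, followed by EIF4EBP1 at 129 ± 4.26 FPKM, and these 2 levels lay closer together than their summed SDs. PSAT1 (86.02 ± 3.59 FPKM), EIF2AK1 (84.98 ± 2.03 FPKM) and SLC1A5 (84.6 ± 1.14 FPKM) formed the next tier, with levels closer together than their summed SDs. After knockdown DDIT4 stood at 104 ± 0.640 FPKM, EIF4EBP1 at 107 ± 10.96 FPKM and PSAT1 at 98.9 ± 5.90 FPKM, each pair within its summed SDs. ATF4 ranked 13 of 41 at 45.2 ± 0.951 FPKM in controls. At the low end of the tested members stood CHAC1 at 1.10 ± 0.281 FPKM and NUPR1 at 0.0580 ± 0.0289 FPKM.

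**Figure D3:**
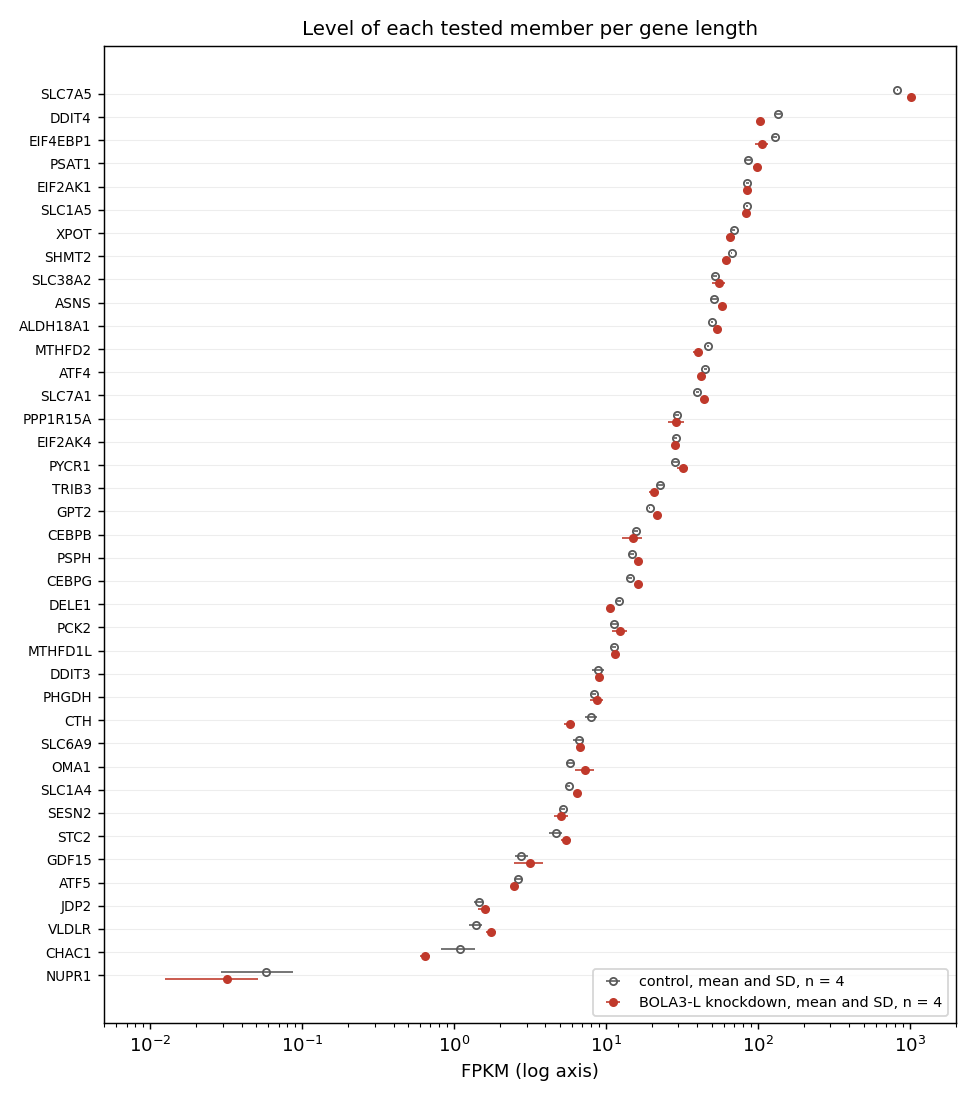
Mean level of each tested member in FPKM on a log axis, with SD over 4 libraries, controls as open circles and BOLA3-L knockdown as filled circles. SLC7A5 stands above all others, and for most members the difference between the groups is small beside the spread between genes.

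Transcript base composition moved with the deviation of knockdown replicate 1 in these genes. Over the 39 tested members, the log2 level in that library minus the mean of the other knockdown libraries had a Spearman correlation of -0.84 with the GC content of the longest GENCODE v29 transcript, and of -0.70 over 11584 tested genes. These points share 1 library and its depth, so the correlation is a description. The GC-rich members GDF15 (62.9% GC), CEBPB (66.2%) and EIF4EBP1 (65.5%) stood low there, and SLC38A2 (38.1%) and OMA1 (43.5%) stood high. Knockdown replicates 2 to 4, each against the others of the group, gave 0.55, 0.48 and 0.70 over the members. Replicate 1 is part of their reference mean. Over the 11584 genes they gave 0.23, 0.45 and 0.53. Control replicates 1 to 4 gave -0.21, 0.33, 0.24 and -0.38 over the members. Over the 11584 genes they gave -0.072, 0.067, 0.13 and -0.094. With offsets corrected for GC content in each library, an alternative chosen after seeing the data, 13 members rose (background 19.9%) and 10 fell (background 21.3%). All 19 members called with every library kept their call and direction under that correction, and PSPH, PYCR1 and ALDH18A1 were added to the rises and XPOT to the falls.

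**Figure D4:**
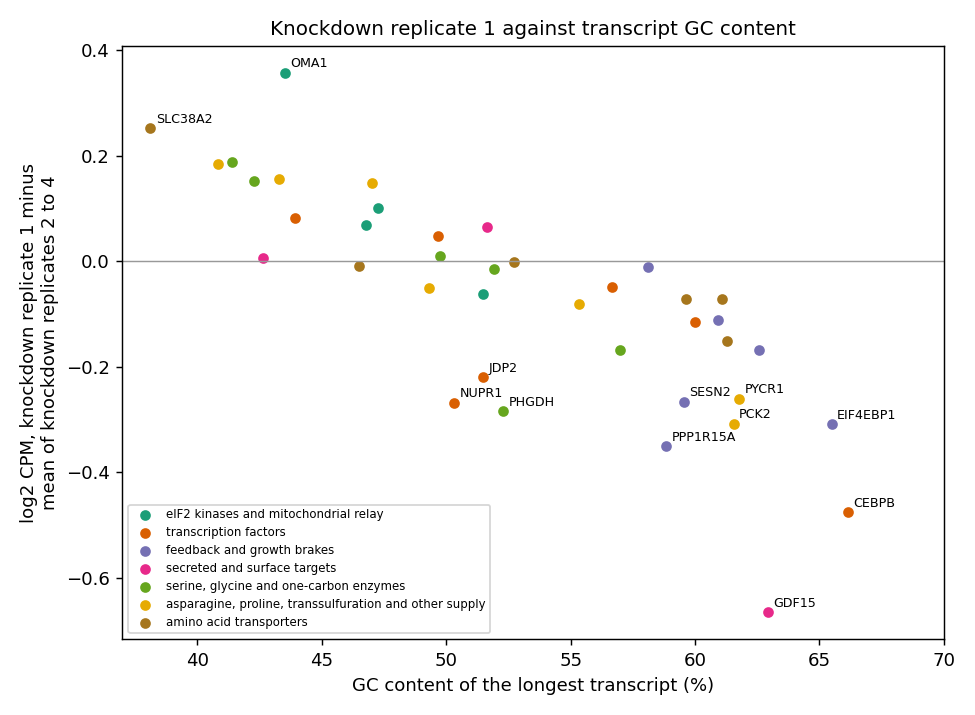
Each point is 1 of the 39 tested members, with the GC content of its longest transcript on the x axis and the log2 CPM of BOLA3-L knockdown replicate 1 minus the mean of knockdown replicates 2 to 4 on the y axis, coloured by role. Points run downward from left to right, from SLC38A2 at 38.1% GC to GDF15 and CEBPB at 62.9% and 66.2%.

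Further genes of the eIF2 pathway moved in both directions. Of 17 tested genes 2 rose (background 15.0%) and 6 fell (background 15.6%), with a median log2 change of -0.04 beside 0.0014 over all tested genes. ATF3, a stress factor downstream of ATF4, stood at 80.3, 76.4, 76.4 and 78.5 CPM in controls and 61.7, 60.2, 60.7 and 63.02 CPM after knockdown. It fell by 0.34 (edgeR adjusted p 7.0e-06). EIF2S2, the beta subunit of eIF2, had a log2 change of -0.20 and the adaptor NCK1 one of -0.39, both past the threshold. IMPACT, which competes with GCN2 for its activator GCN1, averaged 28.4 ± 0.765 CPM in controls and 35.9 ± 2.62 CPM after knockdown (mean ± SD, n = 4 each), a log2 change of 0.34 (edgeR adjusted p 3.1e-04). GCN1 fell by 0.12 (adjusted p 0.0192), and EIF2AK3, the endoplasmic reticulum kinase PERK, gave -0.062 (adjusted p 0.518) and did not pass. GCN1, EIF2AK3 and the genes SLC3A2 and SHMT1 below were picked out after their values were seen.

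Among the other amino acid transporters 9 of 13 tested genes were called (69.2%, background 30.7%), with 5 rises and 4 falls. This list too was chosen with earlier results of these data known, so its share is a description. SLC38A1, a glutamine carrier of the SNAT family, averaged 426 ± 7.44 CPM in controls and 306 ± 22.5 CPM after knockdown (mean ± SD, n = 4 each), a log2 change of -0.48 (edgeR adjusted p 1.6e-07), and its relative SLC38A5 fell by 0.41. The lysosomal and surface carrier SLC36A1 fell by 0.52 and the glutamate carrier SLC1A3 by 0.45. SLC3A2, the heavy chain that brings SLC7A5 to the surface, was counted at 940.1, 925, 970.4 and 1006 CPM in controls and 1106, 1202, 1179.9 and 1170.0 CPM after knockdown. Its rise was 0.28 and that of SLC7A5 was 0.29, and SLC3A2 was picked out after its values were seen. In both genes all knockdown libraries were above all controls, as in 14.6% of all tested genes. SLC7A11 of the same list gave -0.071 and did not pass the test, and SLC7A6 rose by 0.18. Whether these genes moved together was not tested.

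Of the other amino acid and folate enzymes 8 of 25 tested genes were called (32.0%), near the background of 30.7%, with 3 rises and 5 falls. GLUL, glutamine synthetase, averaged 108 ± 4.57 CPM in controls and 84.1 ± 1.08 CPM after knockdown (mean ± SD, n = 4 each), a log2 change of -0.36 (edgeR adjusted p 3.7e-06), and the urea cycle enzyme ASS1, which makes arginine precursor from citrulline and aspartate, rose by 0.27. TYMS, thymidylate synthase, fell by 0.17. SHMT1, the cytosolic counterpart of SHMT2, rose by 0.14 (adjusted p 0.0260). Of the amino acid sensing genes upstream of mTORC1 4 of 28 tested genes were called (14.3%, background 30.7%): LAMTOR2 of the lysosomal anchor rose by 0.27, and RHEB, which activates mTORC1, the leucine-responsive GTPase SAR1B and TSC1, which restrains RHEB, fell by 0.22, 0.20 and 0.15. Whether these lists differ from other genes was not tested. Without knockdown replicate 1, 7 sensing genes rose and 3 fell, and 7 of these enzymes rose and 7 fell, where 21.2% of all tested genes rose and 21.5% fell.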

How the data were processed

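Polyadenylated RNA of 8 KYSE150 libraries was sequenced as 150 bp paired-end reads and filtered with fastp, per the labels and the series' design text. The genome build is hg38, per the submitters' processing notes, while aligner, counter, strand setting and annotation were not given in the sources used here. Per gene, the authors deposited raw counts. The authors' deposited FPKM values matched these counts scaled by library and by 1 length per gene, within a relative tolerance of 1e-06 for all 15852 genes. From the counts, genes were filtered with filterByExpr, scaled by TMM and compared with edgeR's robust quasi-likelihood test, with Benjamini-Hochberg adjustment over 11841 genes. The SE is the absolute log2 change over the square root of F. Alternatives were RLE and upper quartile scaling, other filters, a replicate block, each library left out, DESeq2, limma on log2 FPKM (pseudocount 1 or 0.1) and, added later, GC-corrected offsets. Per-library values rest on depths at which 3 counts equal 0.0854 to 0.0962 CPM of the unscaled library total. Members, lists and roles were chosen with earlier results of these data known. All members may be named, with values in every library for called members, the kinases and relay, ATF4, DDIT3 and ASNS. Up to 4 genes with the smallest p are named from each further list, apart from a result not reported here. Squamous, fibroblast, leukocyte and endothelial markers were summed per library. GC content, shared 75-base windows and exon overlaps come from GENCODE v29, and coordinates and promoters from RefSeq on GRCh38.p14. Steps were tested on simulated data. Versions were edgeR 4.0.16, DESeq2 1.42.0 and limma 3.58.1 under R 4.3.3, and Python 3.11.15.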

Additional observations from a re-analysis of the deposited data

Results flagged for a closer look

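Among 80 groups of 4 libraries checked (39 members and BOLA3, each in 2 groups), 4 held a library whose gap to its nearest neighbour exceeded Dixon's 95% critical value for 4 samples, and chance flags about 1 in 20 groups. In 3 of the 4 it was BOLA3-L knockdown replicate 1. For CEBPB that library stood at 24.3 CPM, below 33.7 to 33.9 CPM in the other knockdown libraries. For XPOT it stood at 479 CPM, above 418 to 422 CPM, and for EIF2AK4 at 166 CPM, above 154 to 156 CPM. The remaining value was EIF4EBP1 in control replicate 1, at 113 CPM against 105.5 to 106 CPM in the other controls.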

How the results depend on the processing

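All 19 called members kept their direction under the 10 alternatives and 8 fits with a library left out, and 10 of them kept their call in every one: DELE1, DDIT4, CHAC1, EIF4EBP1, VLDLR, PSAT1, MTHFD2, CTH, SLC7A5 and SLC7A1. Leaving out single libraries gave 6 to 16 members that rose and 6 to 10 that fell. Without control replicate 2, 6 rose (background 11.9%) and 6 fell (background 11.9%). Without control replicate 3, 6 rose (background 11.8%). Without knockdown replicate 1, 16 rose (background 21.2%) and 10 fell (background 21.5%). The median of the members ranged from -0.0063 to 0.0168 in the fits with a library left out. The count over all genes ran from 2841 of 11911 without control replicate 2 to 5081 of 11897 without knockdown replicate 1. The cause was not tested. No pairing by replicate number was seen (correlations of same-numbered deviations from -0.044 to 0.088), though 4 libraries per group cannot exclude it. With the replicate number as a block 8 members rose and 9 fell. In that fit 3392 of 11841 tested genes were called, 1656 that rose and 1736 that fell. Of the 20 members not called with all libraries, 9 switched sign in at least 1 setting. EIF2AK1 gave 0.005 in the 3 limma fits. DDIT3 gave 0.0067 with upper quartile scaling, 0.0018 with no filter on low counts, 0.0001 with a minimum of 1 CPM, 0.0009 with the block, and 0.0207, 0.023 and 0.0207 in the limma fits. SLC6A9 gave 0.0075, 0.0024, 0.0007 and 0.0014 in the same edgeR fits, 0.0193, 0.0223 and 0.0193 in limma and 0.0014 with GC-corrected offsets. With single libraries left out, the ranges were -0.0545 to 0.0484 for DDIT3, -0.1265 to 0.0168 for CEBPB, -0.086 to 0.0486 for PPP1R15A, -0.0142 to 0.1084 for PHGDH, -0.0034 to 0.0287 for MTHFD1L, -0.0517 to 0.0049 for SLC1A5, -0.0368 to 0.0632 for SLC6A9 and -0.0026 to 0.1045 for SLC38A2. Depth limits NUPR1, FGF21 and ALDH1L2.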
